A study of Mus musculus with 24 samples.

Results

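The linker histone genes outside the replication-dependent set and the testis forms of H2A and H2B were followed in mouse testis with and without *Atad2*, as the first wave of germ cells passed from meiosis into spermatid life. The 7 genes, of 24456 in the count tables, were chosen by name: the linker histone genes *Hist1h1t*, *H1fnt*, *Hils1*, *H1f0* and *H1fx*, the testis H2B gene *Hist1h2ba* and the testis H2A gene *Hist1h2aa*. All 7 passed the filter on low counts that left 17170 genes for testing.

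Whole testes of wild-type (WT) males and of males homozygous for the *Atad2* knockout (KO) were taken at postnatal days 20, 22, 24 and 26. The KO allele carries a lacZ cassette spliced to an upstream exon, and crossing with mice in which the CMV promoter drives Cre in all cells removed a following exon, so the allele is constitutive and every cell of the testis carries it. There were 4 WT and 4 KO libraries at day 20, 4 and 4 at day 22, 2 and 2 at day 24 and 2 and 2 at day 26, made from total RNA after ribosomal RNA depletion. A name such as WT_d20_2 gives a library's genotype, day and replicate. The labels give no strain and do not say that each library is a separate animal, so the p-values measure the spread between these libraries.

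Linker histones bind the DNA that enters and leaves the nucleosome and help to fold chromatin. Male germ cells exchange the somatic linker histones for their own forms and, in spermatocytes, replace much of the ordinary H2A and H2B by the testis forms, before transition proteins and protamines take the place of histones in elongating spermatids. *Hist1h1t* encodes the linker histone of pachytene spermatocytes and early spermatids, *H1fnt* a linker histone found over the apical side of the spermatid nucleus, and *Hils1* a divergent linker-like protein of elongating spermatids. *H1f0* encodes a replication-independent linker histone typical of differentiated cells, and *H1fx* the most divergent of the somatic linker histones.

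All 7 genes have 1 exon in the GENCODE M21 annotation of build mm10. *Hist1h1t* (chr13:23695814-23696725, plus strand) lies in the large histone cluster, 237179 bases from *Hist1h2ba* (chr13:23933773-23934156, minus strand). *Hist1h2aa* (chr13:23934462-23934851, plus strand) is read away from *Hist1h2ba*, and the RefSeq starts of this pair stand 280 bases apart. *H1fnt* (chr15:98255986-98257293, minus strand), *H1f0* (chr15:79028450-79030504, plus strand) and *H1fx* (chr6:87980421-87981637, minus strand) stand elsewhere. *Hils1* (chr11:94967593-94968456, plus strand) lies inside the intron chr11:94963400-94969058 of *Sgca*, which is read from the other strand, and no exon of *Sgca* overlaps it. The counting used the strand of the reads. Read pairs that fitted several places were discarded, so that sequence shared between histone copies lowers the counts of the cluster genes.

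Promoters are shown for the neighbouring pair *Hist1h2ba* and *Hist1h2aa*, for *Hist1h1t*, and for *Hils1* and *H1fnt*. This grouping does not match the levels described further on, where *Hist1h1t* moved together with the pair. All 7 genes matched a RefSeq promoter entry of build GRCm38.p6, and the 250 bases before each start were searched on both strands for 7 short motifs. These were the TATA box TATAAA, the CCAAT box CCAAT, the histone octamer ATTTGCAT, the cyclic AMP response element TGACGTCA, its core TGACGT (contained in the full element), the H1 box AAACACA and the RFX core GTTGCC. Capitals mark matches on either strand, so that a CCAAT box on the other strand reads ATTGG. The stretch between the starts of *Hist1h2ba* and *Hist1h2aa* covers chr13:23934157-23934436 and is printed on the plus strand, while the other sequences follow the strand of their gene: *Hist1h1t* at chr13:23695561-23695810, *Hils1* at chr11:94967343-94967592 and *H1fnt* at chr15:98257308-98257557.
Hist1h2ba to Hist1h2aa: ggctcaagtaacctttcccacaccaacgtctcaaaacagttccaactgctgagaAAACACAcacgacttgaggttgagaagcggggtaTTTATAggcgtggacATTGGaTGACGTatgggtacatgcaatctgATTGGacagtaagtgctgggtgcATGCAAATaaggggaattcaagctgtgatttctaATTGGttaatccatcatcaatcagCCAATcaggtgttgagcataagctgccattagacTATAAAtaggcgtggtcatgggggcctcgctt
Hist1h1t: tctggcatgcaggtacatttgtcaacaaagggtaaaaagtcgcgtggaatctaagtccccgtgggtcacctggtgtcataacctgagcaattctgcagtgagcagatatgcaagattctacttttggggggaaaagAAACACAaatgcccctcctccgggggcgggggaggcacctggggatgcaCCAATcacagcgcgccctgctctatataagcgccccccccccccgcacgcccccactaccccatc
Hils1: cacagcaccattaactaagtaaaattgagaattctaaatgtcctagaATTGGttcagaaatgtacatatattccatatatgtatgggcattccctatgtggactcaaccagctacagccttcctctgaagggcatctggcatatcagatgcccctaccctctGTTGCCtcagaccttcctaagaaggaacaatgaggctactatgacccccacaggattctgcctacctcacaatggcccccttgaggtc
H1fnt: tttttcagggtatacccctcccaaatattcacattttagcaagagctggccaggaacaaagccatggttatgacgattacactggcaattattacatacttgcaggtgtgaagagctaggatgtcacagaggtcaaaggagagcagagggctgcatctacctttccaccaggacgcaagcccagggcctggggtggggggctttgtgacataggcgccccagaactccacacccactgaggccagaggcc

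The stretch between *Hist1h2ba* and *Hist1h2aa* holds 4 CCAAT boxes, 3 of them on the strand of *Hist1h2ba* and 1 on that of *Hist1h2aa*. It holds a TATA box on the strand of each gene. These boxes lie 94 to 89 bases before the RefSeq start of *Hist1h2ba* and 32 to 27 bases before that of *Hist1h2aa*. A single octamer lies between them, 164 to 157 bases before the start of *Hist1h2ba* and 124 to 117 bases before that of *Hist1h2aa*, so that both genes have it within their own window. The octamer occurs in 1.62% of the 32536 distinct RefSeq windows of this length, the TATA box in 12.3% and the CCAAT box in 33.8%.

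The *Hist1h1t* window has an H1 box 114 to 108 bases and a CCAAT box 65 to 61 bases before the start, and the H1 box is also present between *Hist1h2ba* and *Hist1h2aa*. Of all windows, 6.25% hold an H1 box. The *Hils1* window holds an RFX core 88 to 83 bases before the start and a CCAAT box on the other strand, and 10.3% of windows hold that core. None of the 7 motifs is in the windows of *H1fnt*, *H1f0* or *H1fx*. None of the 7 genes has the full cyclic AMP response element, which 1.56% of windows hold. Its core, which 6.5% of windows hold, is present between *Hist1h2ba* and *Hist1h2aa*. The windows of *H1f0* and *H1fx* are rich in G and C (74.4% and 75.2%) with 24 and 30 CpG sites, while that of *Hils1* has 45.6% G and C and no CpG. A match says only that these letters are there. All distances are from RefSeq starts, and whether transcription begins at those starts was not tested.

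Between 10709667 and 19491935 counts were assigned to genes in a library. *Atad2* was lower in KO than in WT without overlap at each of the 4 days, and its KO level lay between 34.0 ± 3.01 CPM (SD, n = 4) at day 20 and 52.7 ± 0.382 CPM (SD, n = 2) at day 26, against 84.8 ± 8.93 to 125 ± 18.3 CPM in WT. The edgeR test called *Atad2* at days 20, 22 and 24 and not at day 26 (-1.25 on the log2 scale, adjusted p = 0.0628). CPM is the count of a gene relative to the scaled total of its library. The extract protocol of the labels speaks of purified germ cell fractions, but the tissue label is testis, and markers of Sertoli cells, which a germ cell fraction should lack, summed to between 495 and 965 CPM in every library with none of the 8 at 0. A pair of libraries stood apart for these genes. WT_d20_2, the shallowest library and the one with most pairs of several alignments (13.7%), was the highest for *Hist1h1t*, *Hist1h2ba* and *Hist1h2aa*. Mitochondrial ribosomal RNA made up 3.26% of its assigned counts and at most 1.06% in any other library. KO_d22_4, with the fewest pairs of several alignments (4.74%), was the lowest for these 3 genes and the highest for *H1fx*. Values without them stand beside the results they moved most. Epididymal markers summed to between 0 and 753 CPM and were high in single libraries of both genotypes.

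The spermatid markers also moved with genotype. The summed level of 10 round spermatid genes ran from 4.21 to 15.0 CPM in WT and from 12.8 to 125 CPM in KO at day 20, from 80.0 to 120 and from 118 to 434 CPM at day 22, from 358 to 493 and from 423 to 440 CPM at day 24, and from 758 to 792 and from 787 to 851 CPM at day 26. All 10 were higher in KO at day 20 by the edgeR test, and none of the 10 was at 0 in all libraries of any group. None of the 7 histone genes is in that list. In whole testis, fewer cells of a type and less RNA per cell cannot be told apart.

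**Figure D1:**
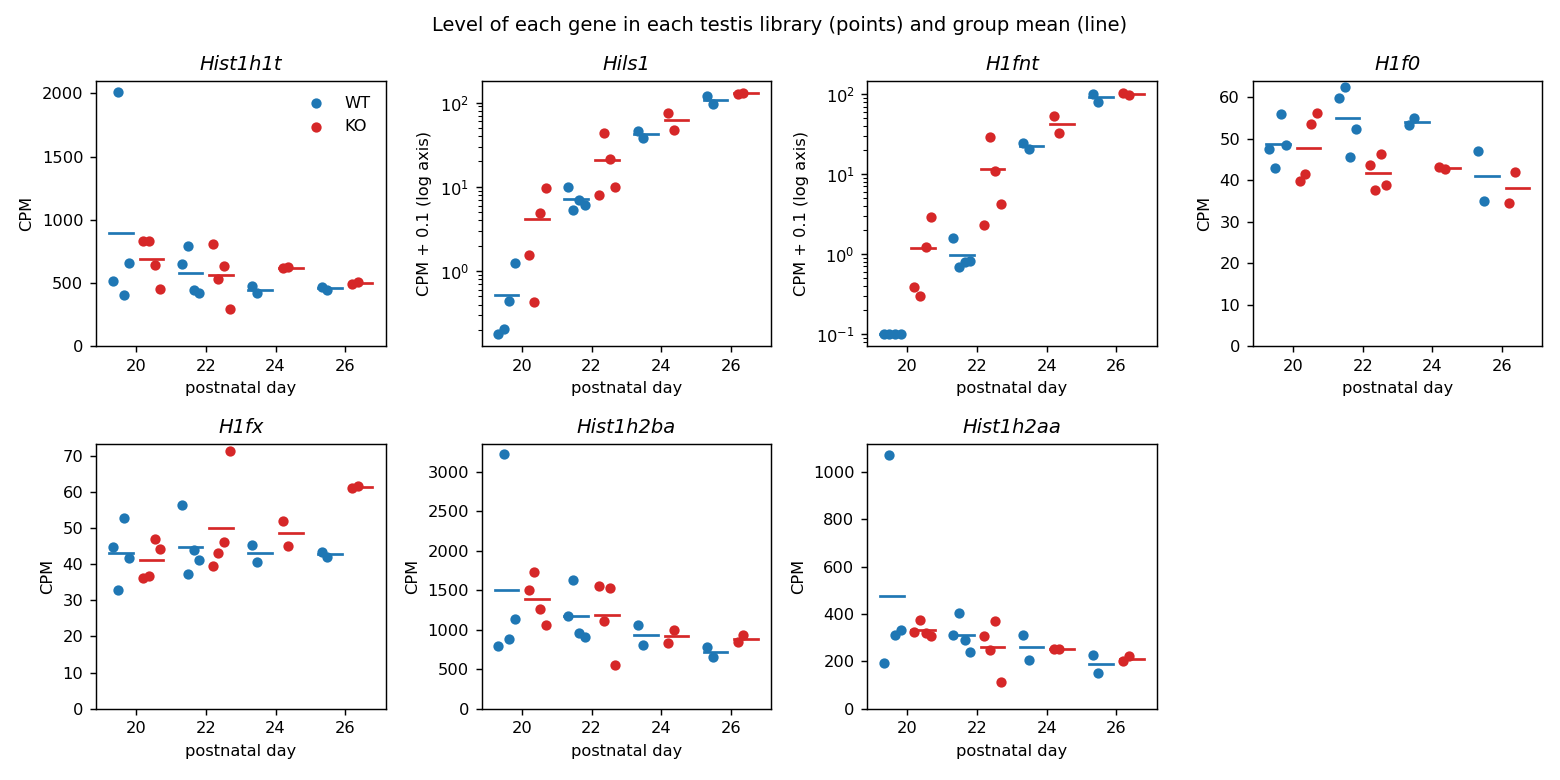
Level of each of the 7 genes in every library by postnatal day, with WT in blue, KO in red, points for libraries and short lines for group means. Vertical axes are in CPM and start at 0, except for *Hils1* and *H1fnt*, which are drawn as CPM plus 0.1 on a log axis and climb from near 0 to about 100 CPM. The highest point of *Hist1h1t*, *Hist1h2ba* and *Hist1h2aa* is WT_d20_2.

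*Hils1* and *H1fnt*, the linker histones of spermatids, rose with age in both genotypes and were called higher in KO over the mean of the 4 days. There *Hils1* was higher in KO by 1.38 on the log2 scale (SE 0.397, adjusted p = 0.043) and *H1fnt* by 2.97 (SE 0.66, adjusted p = 0.0193). These were the 2 members, of 7, called in this comparison, where 7.08% of all genes were called and DESeq2 also called 2 members. Leaving out 1 library at a time, the *H1fnt* call was lost in 1 of 24 fits, without WT_d24_2 (2.95), and the *Hils1* call in 18 of 24 (1.16 to 1.45), 4 of them those without a library of day 26 and 4 those without a library of day 24. Without the filter on low counts 1 member was called, and with a stage score as covariate, described further on, 0 were. The fitted mean of *H1fnt* includes a day without WT counts, and with day 20 set at its lower bound of 1.80 the mean of the 4 days was 1.65. The median log2 difference was 0.05 over the 7 members and 0.01 over all genes.

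At day 20 the WT libraries held 0.0786, 0.105, 0.347 and 1.15 CPM of *Hils1* (1 to 16 counts). The KO libraries of that day held 1.45, 0.327, 4.76 and 9.62 CPM (5 to 142 counts). The groups overlapped, since KO_d20_2 lay below the highest WT library, and the difference of 3.16 (SE 0.922, 95% interval 1.22 to 5.09, adjusted p = 0.0738) did not pass the threshold. It passed in 3 of 24 fits made with a library left out, those without KO_d20_1, KO_d20_2 or KO_d22_2 (3.16 to 3.55).

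At day 22 *Hils1* stood at 9.86, 5.18, 6.93 and 5.93 CPM in WT. In KO it stood at 7.81, 43.5, 21.0 and 9.92 CPM, so that 3 of 4 KO libraries lay above the highest WT library and KO_d22_2 far above it. The log2 difference was 1.56 (SE 0.6, interval 0.30 to 2.82, adjusted p = 0.201), and 0.89 without KO_d22_2. At day 24 WT held 46.0 and 38.1 CPM and KO 75.8 and 47.6 CPM. At day 26 WT held 120.3 and 96.7 CPM and KO 127.8 and 129.8 CPM. The KO libraries lay above the WT libraries at both of these days, but the differences of 0.55 (interval -1.10 to 2.21) and 0.25 (interval -1.39 to 1.88) had wide intervals.

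*H1fnt* had no count in any of the 4 WT libraries of day 20. The KO libraries of that day held 4, 3, 17 and 41 counts, or 0.29, 0.196, 1.12 and 2.78 CPM. Every KO library thus lay above every WT library, although only 2 of the 4 exceeded a floor of 3 counts in the shallowest WT library (0.316 CPM). The KO mean was 3.47 times that floor. The edgeR test did not call it (adjusted p = 0.161). At day 20 no member was called in all (2 at an unadjusted p under 0.05, 2 in DESeq2), against 3.34% of all genes, and *H1fnt* was the 1 member higher in KO without overlap, as were 3.03% of all genes.

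At day 22 *H1fnt* was the 1 member called, and again the 1 member higher in KO without overlap. Its WT libraries held 1.48, 0.585, 0.699 and 0.716 CPM (7 to 21 counts). Its KO libraries held 2.24, 28.9, 10.9 and 4.16 CPM (37 to 480 counts). The lowest KO library thus stood above the highest WT library, and the log2 difference was 3.73 (SE 0.771, interval 2.09 to 5.37, adjusted p = 0.0214). Of all genes, 2.51% were called at this day and 3.64% were higher in KO without overlap. The call was lost in 4 of 24 fits that left out a library, those without WT_d22_2, WT_d22_3, WT_d22_4 or KO_d22_2 (2.73 to 3.65), and in a fit of the day 22 libraries alone (3.74). DESeq2 called 1 member at this day.

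At day 24 *H1fnt* stood at 24.2 and 20.3 CPM in WT and at 52.5 and 32.8 CPM in KO. At day 26 it stood at 101 and 80.4 CPM in WT and at 103 and 97.1 CPM in KO. The groups did not overlap at day 24 and did at day 26, where the log2 difference was 0.14 (interval -1.57 to 1.85). At day 24 no member was called (0 at an unadjusted p under 0.05, 0 in DESeq2), where 0.0874% of all genes were called. At day 26 none was called either (1 at an unadjusted p under 0.05, 0 in DESeq2), where 0.0466% of all genes were. Without overlap, 3 members (*Hist1h1t*, *H1fnt* and *Hils1*) were higher in KO at day 24 beside 22.6% of all genes, 1 (*H1f0*) was lower beside 21.4%, and 4 (*Hist1h1t*, *Hils1*, *H1fx* and *Hist1h2ba*) were higher at day 26 beside 27.8%.

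The point estimates of *Hils1* became smaller from day 20 to day 26 and those of *H1fnt* from day 22 to day 26. A test of all days jointly for a KO effect that varied with age called no member (1 at an unadjusted p under 0.05, *H1fnt* with adjusted p = 0.405, and 1 in DESeq2), and 0.00582% of all genes were called.

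**Figure D2:**
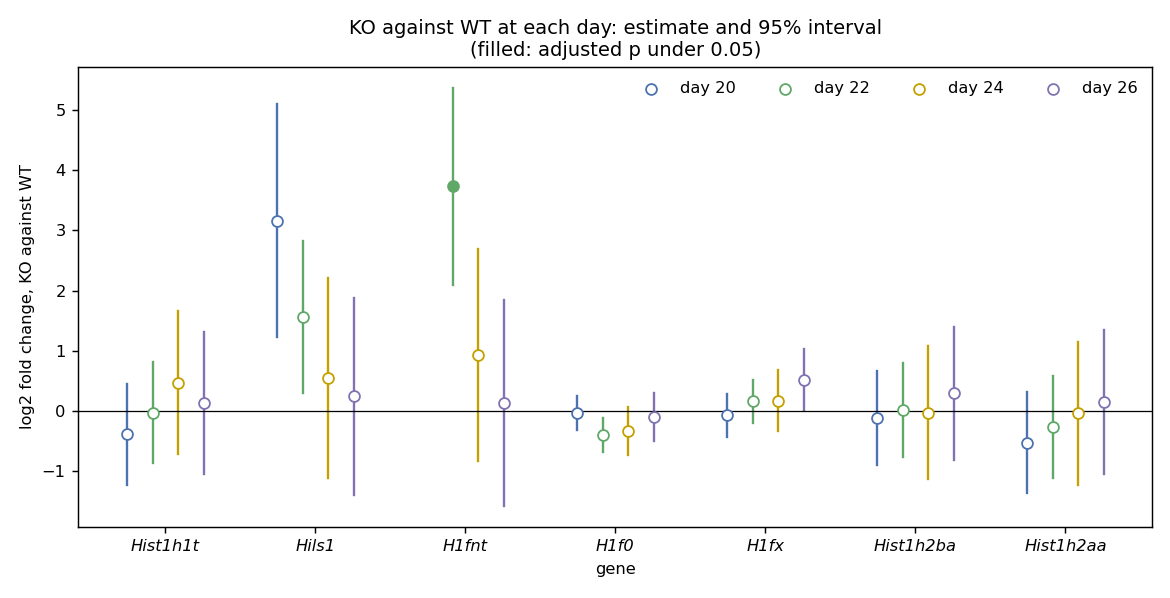
Log2 fold change of KO against WT (vertical axis) for each gene (horizontal axis) at days 20, 22, 24 and 26, as the edgeR estimate with its 95% interval, and filled where called. *H1fnt* at day 20 is left out because WT had no counts. The point of *H1fnt* at day 22 (3.73) is the filled one, and every interval of *Hist1h1t*, *Hist1h2ba* and *Hist1h2aa* spans 0.

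The level of these spermatid linker histones followed the spermatid markers from library to library. A stage score was taken for each library as the mean log2 level of the round spermatid list minus that of 7 pachytene genes. It was -3.37 ± 0.65 in WT and -1.02 ± 1.48 in KO at day 20, -0.25 ± 0.186 and 0.83 ± 0.643 at day 22 (SD, n = 4 each), 1.69 in both at day 24, and 2.28 in WT and 1.97 in KO at day 26. The order of genotypes in the score was thus KO above WT at days 20 and 22 and WT above KO at day 26. At day 26 the round spermatid part of the score overlapped between genotypes (2.74 and 2.85 in WT, 2.78 and 2.86 in KO), while the pachytene part was 0.46 and 0.56 in WT and 0.82 and 0.88 in KO. The KO against WT differences of all 7 pachytene genes were positive at days 20 and 26. At day 20, 1 of 7 was called higher in KO (3 at an unadjusted p under 0.05). Of all 17170 genes, 3.34% were called there (2141 genes at an unadjusted p under 0.05). At day 26, 0 of 7 were called (2), beside 0.0466% of all genes (1979 genes).

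Across the 24 libraries *Hils1* had a Pearson r of 0.984 with this score and *H1fnt* 0.945, and the r of the deviations from the 8 group means was 0.95 and 0.807. These libraries share days and genotypes, so the values are descriptions. KO_d22_2, the library with the most *Hils1* and *H1fnt* of its group, had a score of 1.62, the highest of its group. KO_d20_4, with the most of both at day 20, had a score of 0.488, above every WT library of day 22. Its 9.62 CPM of *Hils1* lay within the WT range of day 22. Its 2.78 CPM of *H1fnt* lay above the WT range of day 22 for that gene (0.585 to 1.48 CPM).

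With the score as a covariate the difference over the mean of the 4 days was -0.04 for *Hils1* and 1.09 for *H1fnt*, and at day 22 it was 1.10 for *H1fnt*, so that no member was called in KO against WT. The score is itself made of genes that differ between genotypes, and which of genotype and stage carries the difference was not tested.

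**Figure D3:**
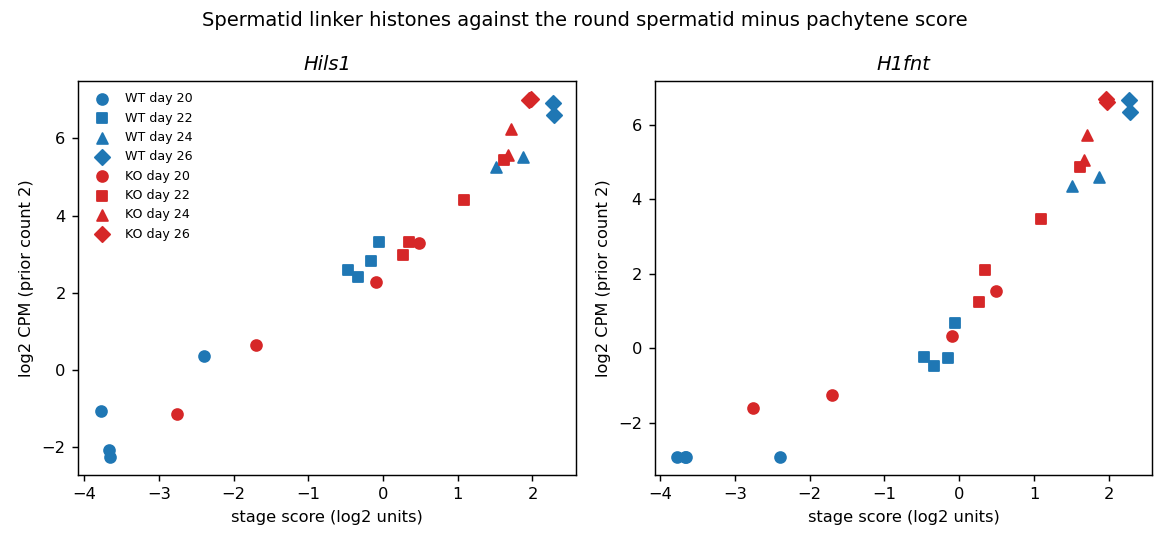
Log2 CPM of *Hils1* and *H1fnt* (vertical axes, prior count 2) against the stage score (horizontal axis, log2 units) in the 24 libraries, with WT in blue, KO in red and a symbol for each day. WT and KO libraries lie along a common band, on which the KO libraries of day 22 stand to the right of the WT libraries of that day.

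Both spermatid linker histones rose steeply with age. In WT, *Hils1* rose by 3.94 on the log2 scale from day 20 to day 22 (SE 0.884, adjusted p = 0.00434), the 1 member called, beside 20% of all genes. *H1fnt* reached a WT mean of 0.87 CPM at day 22, which was 2.75 times the floor of day 20 (adjusted p = 0.0715). From day 22 to day 24 in WT both rose, *H1fnt* by 4.67 (SE 0.833, adjusted p = 0.00461) and *Hils1* by 2.59 (SE 0.683, adjusted p = 0.0289), and 5.92% of all genes were called. The *Hils1* call was lost in 5 of 24 fits, those without WT_d22_2, WT_d22_3, WT_d22_4, WT_d24_1 or WT_d24_2 (2.44 to 2.69). From day 24 to day 26 in WT no member was called (2 at an unadjusted p under 0.05, *H1fnt* and *H1f0*, and 0 in DESeq2), beside 0.274% of all genes, with *H1fnt* at 2.03 (adjusted p = 0.521).

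In KO the first step was called for both genes. From day 20 to day 22 *H1fnt* rose by 3.39 (SE 0.749, adjusted p = 0.02) and *Hils1* by 2.35 (SE 0.631, adjusted p = 0.0284), and 10.6% of all genes were called. Neither call held without KO_d20_1, KO_d20_2 or KO_d22_2, nor that of *Hils1* without KO_d20_3 (2.38 to 3.09 for *H1fnt* and 1.67 to 2.46 for *Hils1*). From day 22 to day 24 no member was called in KO (2 at an unadjusted p under 0.05, 0 in DESeq2), beside 0.402% of all genes, and from day 24 to day 26 none (0 at an unadjusted p under 0.05, 0 in DESeq2), beside 0.0116%. Whether the timing differed between genotypes was tested only by the joint test given above, which called neither gene.

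From day 20 to day 26, 3 members were called in WT, where 42.5% of all genes were, and 3 in KO, where 52.2% were. *H1fnt* at WT day 26 stood at 287 times the floor of day 20 (adjusted p = 2.01e-06), and *Hils1* rose by 7.90 (SE 0.901, adjusted p = 1.09e-06). In KO, *H1fnt* rose by 6.50 (SE 0.824, adjusted p = 1.59e-05) and *Hils1* by 4.99 (SE 0.72, adjusted p = 2.33e-05). These KO calls of *H1fnt* and *Hils1* also passed with the stage score as a covariate, with smaller estimates (2.18 and 1.44). In WT no member was called from day 20 to day 26 with that covariate, and *Hils1* turned to -0.33.

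The genes whose log2 level was most like that of *H1fnt* over the 24 libraries, members left out, were *Sppl2c* (Pearson r = 0.994), *Aknad1* (0.993) and *4933433C11Rik* (0.993). For *Hils1* they were *Oaz3* (0.996), which encodes an antizyme of spermatids and is among the elongating spermatid markers used here, *Antxrl* (0.995) and *Ccdc54* (0.994). *H1fnt* and *Hils1* had an r of 0.964 with each other.

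*Hist1h1t*, the linker histone of spermatocytes, did not differ between genotypes by the test at any day. At day 20 its WT libraries held 512, 2011, 407 and 654 CPM. Its KO libraries held 829, 834, 640 and 448 CPM. Of the WT libraries, 2 lay within the KO range and 1 just below it, and WT_d20_2 stood far above all others. The log2 difference was -0.38 (interval -1.22 to 0.45, adjusted p = 0.797), and it turned to 0.37 without WT_d20_2.

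At day 22 *Hist1h1t* stood at 647, 790, 442 and 423 CPM in WT and at 808, 528, 636 and 291 CPM in KO. The groups overlapped throughout, with a difference of -0.02 (interval -0.86 to 0.81), or 0.19 without KO_d22_4. At day 24 WT held 477 and 418 CPM and KO 620 and 623 CPM. At day 26 WT held 469 and 445 CPM and KO 494 and 508 CPM. Both KO libraries were above both WT libraries at these days, by 0.48 (interval -0.71 to 1.66) and 0.13 (interval -1.05 to 1.31) on the log2 scale, neither of them called. The mean over the days was 0.05 (interval -0.46 to 0.56, adjusted p = 0.936), or 0.25 without WT_d20_2.

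From day 20 to day 26 the difference of *Hist1h1t* was -0.97 in WT (adjusted p = 0.134) and -0.46 in KO, neither of them called, and the WT value was -0.24 without WT_d20_2. The genes most like it in level were the histone gene *Hist3h2a* (r = 0.936), the ribosomal protein gene *Rpl18* (0.934) and *Klhl28* (0.93).

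*H1f0* stood at 47.6, 43.0, 56.1 and 48.6 CPM in WT and at 39.8, 41.6, 53.6 and 56.1 CPM in KO at day 20. At day 22 it stood at 59.9, 62.5, 45.6 and 52.3 CPM in WT and at 43.8, 37.6, 46.5 and 38.9 CPM in KO. At day 20 the groups overlapped, and at day 22 KO_d22_3 alone lay above the lowest WT library. The day 22 difference was -0.40 (SE 0.135, interval -0.68 to -0.12), with an unadjusted p of 0.00736 and an adjusted p of 0.126.

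At day 24 *H1f0* stood at 53.3 and 55.0 CPM in WT and at 43.1 and 42.7 CPM in KO, without overlap. At day 26 it stood at 47.0 and 35.0 CPM in WT and at 34.4 and 42.0 CPM in KO, with overlap. Over the mean of the 4 days *H1f0* was at -0.22 (SE 0.0829, interval -0.39 to -0.05, adjusted p = 0.112) and was not called, and adding the stage score to the fit gave -0.30, also not called. All 24 fits that left out a library gave a negative mean, from -0.27 to -0.15. The genes most like *H1f0* were *Slc43a3* (r = 0.862), *Arpin* (0.845) and the connexin gene *Gja4* (0.834). Peritubular cell markers moved with it in part: over the mean of the days the differences of all 5 were negative and 2 of 5 were called lower in KO (4 at an unadjusted p under 0.05), against 7.08% of all genes, and their summed level ran from 496 to 732 CPM in WT and from 251 to 514 CPM in KO at day 22. The part of these cells in the *H1f0* values was not tested.

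*H1fx* stood at 44.6, 32.9, 52.7 and 41.6 CPM in WT and at 36.3, 36.8, 46.9 and 44.2 CPM in KO at day 20. At day 22 it stood at 56.3, 37.2, 43.9 and 41.1 CPM in WT and at 39.5, 42.9, 46.1 and 71.3 CPM in KO. The groups overlapped at both days, and the day 22 difference of 0.16 became -0.06 without KO_d22_4. At day 24 WT held 45.2 and 40.6 CPM and KO 51.9 and 45.0 CPM. At day 26 WT held 43.3 and 42.0 CPM and KO 61.1 and 61.6 CPM.

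The day 26 libraries of *H1fx* were thus close within each genotype and apart between them. The log2 difference was 0.52 (SE 0.241, interval 0.02 to 1.02, adjusted p = 0.401) in the fit over all libraries. In a fit of the day 26 libraries alone it was 0.54 and was called. From day 20 to day 26 *H1fx* rose in KO by 0.58 (SE 0.204, adjusted p = 0.022), the member called there beside *H1fnt* and *Hils1*, a call lost without KO_d20_1, KO_d20_2, KO_d26_1 or KO_d26_2 (0.52 to 0.57), while the WT value was near 0 and changed sign between settings. The genes most like *H1fx* were *Ccdc97* (r = 0.831), *Tkfc* (0.826) and *Atp6v1g2* (0.814), and its r with *Hist1h2ba* was -0.643.

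The testis H2B and H2A genes were not called between genotypes at any day, with wide intervals. At day 20 *Hist1h2ba* stood at 796, 3222, 879 and 1139 CPM in WT and at 1504, 1734, 1261 and 1063 CPM in KO. At day 22 it stood at 1176, 1634, 961 and 912 CPM in WT and at 1557, 1117, 1524 and 552 CPM in KO. The groups overlapped at both days, with WT_d20_2 the highest and KO_d22_4 the lowest of the 16 libraries. The differences were -0.12 (interval -0.90 to 0.66) and 0.02 (interval -0.76 to 0.80), and they became 0.55 without WT_d20_2 and 0.26 without KO_d22_4.

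At day 24 *Hist1h2ba* held 1060 and 808 CPM in WT and 837 and 1001 CPM in KO. At day 26 it held 785 and 651 CPM in WT and 840 and 929 CPM in KO. The groups overlapped at day 24 and did not at day 26, where the difference was 0.30 (interval -0.80 to 1.40). The mean of the days was 0.05 (SE 0.228, interval -0.43 to 0.52, adjusted p = 0.94), or 0.22 without WT_d20_2.

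*Hist1h2aa* stood at 194, 1071, 310 and 334 CPM in WT and at 325, 375, 319 and 309 CPM in KO at day 20. At day 22 it stood at 309, 404, 292 and 242 CPM in WT and at 308, 247, 371 and 111 CPM in KO. At day 24 WT held 313 and 208 CPM and KO 253 and 254 CPM, and at day 26 WT held 227 and 153 CPM and KO 203 and 221 CPM. The groups overlapped at all 4 days. The day 20 difference was -0.52 (interval -1.37 to 0.32) and turned to 0.23 without WT_d20_2, and the mean of the days was -0.17 (interval -0.68 to 0.35, adjusted p = 0.746), which turned to 0.0275 without WT_d20_2.

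*Hist1h2aa* was the remaining member called with age in WT, lower by 1.33 on the log2 scale at day 26 than at day 20 (SE 0.523, adjusted p = 0.0484). With a library left out in turn the call was lost in 12 of 24 fits, where the value ran from -1.65 to -0.61, the latter without WT_d20_2. *Hist1h2ba* was at -1.07 in the same comparison (adjusted p = 0.0799), or -0.43 without WT_d20_2. In KO the values were -0.65 for each, and neither was called.

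*Hist1h2ba*, *Hist1h2aa* and *Hist1h1t* rose and fell together over the libraries. The r between *Hist1h2ba* and *Hist1h2aa* was 0.931 and that between *Hist1h2ba* and *Hist1h1t* 0.918, and over the deviations from the group means they were 0.956 and 0.962. The genes most like *Hist1h2ba* were the histone genes *Hist1h2ak* (r = 0.94) and *Hist1h2an* (0.938) and the ribosomal protein gene *Rpl27* (0.934). Those most like *Hist1h2aa* were the linker histone gene *Hist1h1a* (0.947), the histone gene *Hist2h2bb* (0.938) and *Rpph1* (0.927), the RNA of ribonuclease P.

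Since the pair moved together, its genotypes were also compared by the ratio of *Hist1h2aa* to *Hist1h2ba* within each library. On the log2 scale it was -2.04, -1.59, -1.50 and -1.77 in WT and -2.21, -2.21, -1.98 and -1.78 in KO at day 20. At day 22 it was -1.93, -2.01, -1.72 and -1.92 in WT and -2.34, -2.18, -2.04 and -2.31 in KO. The KO libraries overlapped WT at day 20 and lay below all WT libraries at day 22. At day 24 it was -1.76 and -1.96 in WT and -1.72 and -1.98 in KO, and at day 26 -1.79 and -2.09 in WT and -2.04 and -2.07 in KO, with overlap at both days.

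The difference in log2 ratio over the mean of the 4 days was -0.189, a ratio 0.877 times that of WT, lower in KO at 3 of 4 days. An exact two-sided permutation test with 176400 relabellings within days gave p = 0.0119, or 0.0238 adjusted over the 2 ratios tested. The day 22 difference of -0.322 had an exact permutation p of 0.0286, the smallest that 4 against 4 libraries can give, and the day 20 difference of -0.322 had 0.114. At days 24 and 26 the smallest possible p was 0.333. The call was lost in 4 of 24 fits, those without WT_d24_1, KO_d24_2, WT_d26_1 or KO_d26_2, and the difference ran from -0.227 to -0.151 over the 24. The ratio of *Hist1h1t* to *Hist1h2ba*, the other ratio tested, differed by 0.019 over the mean of the days (exact permutation p = 0.852). Its differences went both ways: -0.229, -0.018, 0.494 and -0.171 at days 20, 22, 24 and 26. The groups did not overlap at day 24, with KO above WT, nor at day 26, with KO below WT.

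**Figure D4:**
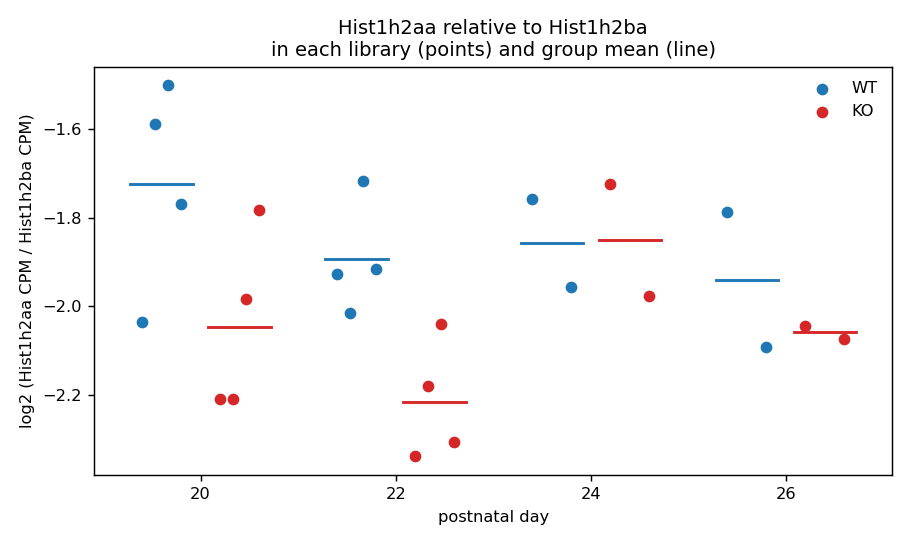
Log2 ratio of *Hist1h2aa* to *Hist1h2ba* (vertical axis) by postnatal day, with WT in blue, KO in red, points for libraries and lines for group means. At day 22 the 4 KO libraries, from -2.34 to -2.04, lie below the 4 WT libraries, from -2.01 to -1.72, and at the other days the groups overlap.

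Per kilobase of RefSeq transcript, *Hist1h2ba* had the highest level of the 7 genes in every group, from 1663 CPM per kilobase in WT at day 26 to 3493 in WT at day 20. The WT libraries of day 20 ran from 1843 to 7459, overlapped those of *Hist1h1t*, and had a mean of 2171 without WT_d20_2. *Hist1h1t* and *Hist1h2aa* followed, and their libraries overlapped in 5 of 8 groups, so that their order was not settled there. At day 20 in WT the order went on with *H1fx* at 40.4, *H1f0* at 21.3 and *Hils1* at 0.487 CPM per kilobase, with *H1fnt* at 0. By day 26 *Hils1* (126 in WT and 149 in KO) and *H1fnt* (68.5 and 75.4) had passed *H1fx* (40.2 and 57.8) and *H1f0* (17.9 and 16.7), without overlap between neighbours in either genotype.

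Set against the 5 replication-dependent linker genes *Hist1h1a* to *Hist1h1e*, the 5 linker histone members took a growing share of the linker histone RNA, counted as CPM per kilobase over these 10 genes. *Hist1h1a* to *Hist1h1e* made up 65.4% in WT and 62.6% in KO at day 20, 58.9% and 56.1% at day 22, 57.5% and 50.3% at day 24, and 47.7% and 45.9% at day 26. *Hist1h1t* held a steady share, from 32.1% ± 4.33 (SD, n = 4) at day 20 to 37.3% ± 3.2 (SD, n = 2) at day 26 in WT and from 34.8% to 37.6% in KO, with 41.5% in KO at day 24. The spermatid forms grew.

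*Hils1* rose from 0.02% to 0.404%, 2.80% and 7.47% of the linker sum in WT over the 4 days and from 0.218% to 1.29%, 3.47% and 8.22% in KO. *H1fnt* rose from 0 to 0.0324%, 0.966% and 4.07% in WT and from 0.0389% to 0.469%, 1.56% and 4.17% in KO. The group means of *H1f0* lay between 0.837% and 1.37% and those of *H1fx* between 1.54% and 3.19%. Single libraries ranged more widely, from 0.199% in WT_d20_2 to 1.61% in KO_d22_4 for *H1f0* and from 0.328% to 6.38% in the same libraries for *H1fx*. These shares describe RNA recovered without selection for poly(A) tails, and they shift with the transcript lengths used.

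**Figure D5:**
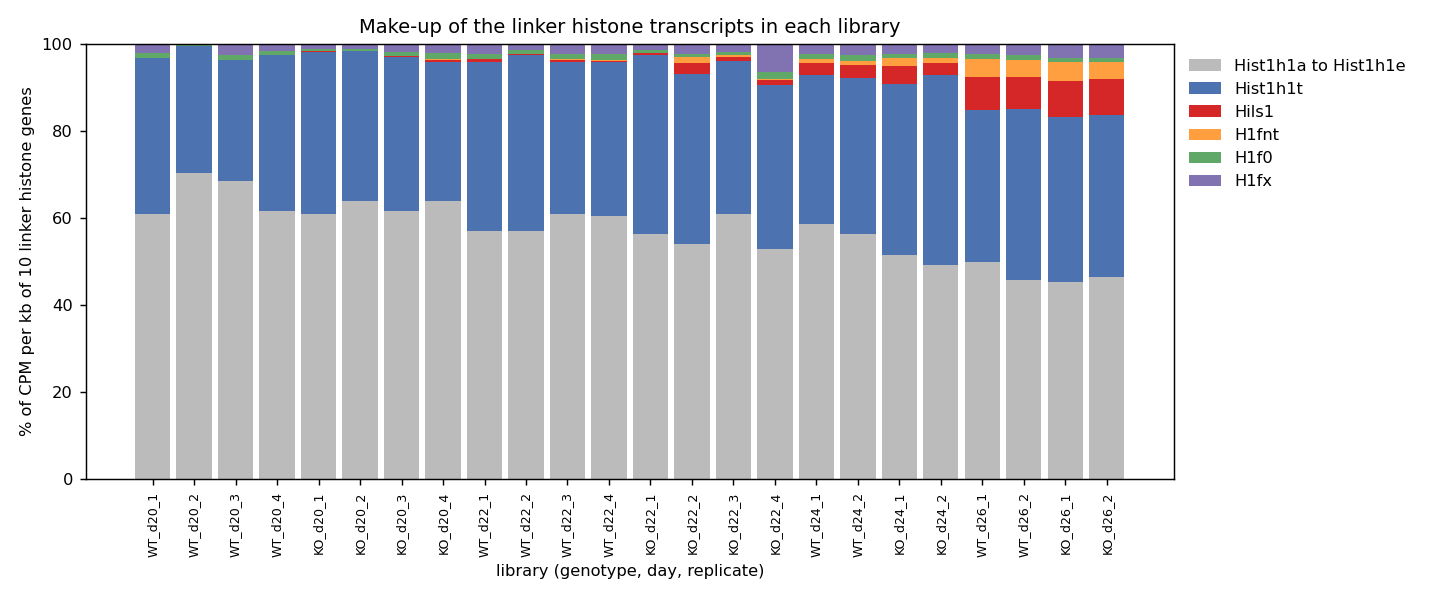
Stacked bars for each library of the share of linker histone genes (vertical axis, percent of CPM per kilobase over 10 genes), with *Hist1h1a* to *Hist1h1e* as 1 block. The block falls from a mean of 65.4% to 47.7% in WT from day 20 to day 26, while *Hils1* and *H1fnt*, drawn above *Hist1h1t*, reach means of 7.47% and 4.07%.

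The somatic-type genes of that sum did not pass the test between genotypes. None of *Hist1h1a* to *Hist1h1e* was called in edgeR at any day or over the mean (1 at an unadjusted p under 0.05 at day 20, and 1, *Hist1h1b*, over the mean), with a median log2 difference of -0.32 over the mean beside 0.01 for all genes. With age 3 of 5 were called lower in WT from day 20 to day 26, where 42.5% of all genes were called: *Hist1h1a* fell by 1.85, *Hist1h1c* by 1.58 and *Hist1h1e* by 1.47 on the log2 scale. These sizes rest in part on WT_d20_2. In a fit without it, added after seeing the data, the values were -0.88 (adjusted p = 0.0433), -0.62 (adjusted p = 0.122, not called) and -0.85 (adjusted p = 0.00353). In KO 2 of 5 were called lower, where 52.2% of all genes were called, *Hist1h1b* by 1.61 and *Hist1h1d* by 1.05, and in the fit without WT_d20_2 all 5 were called, from -1.62 to -0.81. In that fit 46.4% of all genes were called in WT and 59.1% in KO. *Hist1h1a* was named after its values were seen.

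Protamines and transition proteins, which take over from histones in elongating spermatids, stood higher in KO at day 22, with 4 of 5 called: *Prm1* by 5.53 (adjusted p = 0.0302), *Prm2* by 5.02, *Tnp1* by 4.50 and *Tnp2* by 4.46 on the log2 scale. At day 22 *Prm1* had 2 to 16 counts in WT libraries and 20 to 1086 in KO, and *Tnp2* 5 to 19 and 20 to 800. *Prm2* had 2 to 11 in WT and 9 to 754 in KO, and *Tnp1* 4 to 16 and 13 to 671. The count ranges of *Prm2* and *Tnp1* thus overlapped. Whether these calls hold without a single library, such as KO_d22_2, was not tested. The same 4 were called over the mean of the days, and none of the 5 was called at day 20 (1 at an unadjusted p under 0.05), day 24 (2) or day 26 (0). From day 20 to day 26 all 5 rose in both genotypes. Of all genes, 3.34% were called at day 20, 2.51% at day 22 and 7.08% over the mean of the days, and the counts of this list and of those that follow stand beside these shares.

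Of 16 listed factors of histone acetylation, removal and turnover in spermatids, 15 were tested, and 1 was called higher in KO at day 20, against 3.34% of all genes, and 2 at day 22, against 2.51%. At day 22 these were the kinase genes *Tssk6* (2.32, adjusted p = 0.0417) and *Camk4* (1.21, adjusted p = 0.0302), and at day 20 it was *Nutm1*, a partner of the acetyltransferase p300 in spermatids (1.27, adjusted p = 0.0166), named after its values were seen. *Tssk6* was also called over the mean of the days (1.36, adjusted p = 0.0205). Its WT libraries of day 22 held 4 to 11 counts.

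Among other testis histones, 5 of the 7 genes found in the tables were tested. *H2afb1*, a short H2A form of spermatids, was called higher in KO at day 22 (4.47, adjusted p = 0.0199), on 1 to 4 counts in WT and 9 to 137 in KO, the 1 gene of 5 called at that day. Over the mean of the days 2 of 5 were called, *H2afb1* (2.30, adjusted p = 0.0352) and 1700024P04Rik, named H2bl1 in RefSeq (adjusted p = 0.0255), which had no count in WT at day 20, so that its fitted mean is no bound. Of 15 chaperones of H2A, H2B and H1, none was called at day 20 (2 at an unadjusted p under 0.05), day 22 (0), day 24 (1) or day 26 (3), and over the mean of the days 1 of 15 was called, lower in KO, a share close to the 7.08% of all genes. This was *Ptma*, which encodes the acidic H1-binding protein prothymosin alpha (-0.23, adjusted p = 0.0302).

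Of 12 regulators of spermatid genes, 2 were called higher in KO at day 20, *Kif17* (2.22, adjusted p = 0.0173) and *Spz1* (2.97, adjusted p = 0.0138), and 2 at day 22, *Fhl5* (2.30, adjusted p = 0.0293) and *Ctcfl* (0.73, adjusted p = 0.0355). *Fhl5* encodes the testis coactivator of CREM. Over the mean of the days *Fhl5* (1.21) and *Spz1* (1.17) were called. Of the spermatid markers, 10 of 10 for round and 5 of 6 for elongating spermatids were called higher in KO at day 20, and 0 of 10 (10 at an unadjusted p under 0.05) and 1 of 6 at day 22. The part of cell makeup in the values of these lists was not tested.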

How the data were processed

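The 24 libraries of mouse testis RNA were grouped by the genotype and day in their labels. The text of the study names fewer day 20 replicates than the labels do, and every labelled library was kept. The authors aligned the reads to mm10 with STAR 2.7.11b and used HTSeq, by strand, to count pairs within exons, discarding pairs that aligned to several places, and the deposited values are unscaled counts for each gene symbol, neither normalised nor pooled. The version of the gene models is not given in the sources used here. Tallies of unassigned pairs (no feature, 45.1% to 58.5% of a table, and several alignments, 4.74% to 13.7%) stayed out of library sizes and tests. Assigned counts ran from 10709667 to 19491935 per library, and floors of 3 counts cover counting error only, since read pairs carry no molecular identifiers. The intervals given with fitted differences include the spread between libraries.

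From these counts, the quasi-likelihood test of edgeR 4.0.16 (R 4.3.3, limma 3.58.1) was fitted over all 24 libraries with 1 mean for each of 8 groups, after TMM scaling and the filterByExpr filter at a minimum count of 10. Benjamini-Hochberg adjustment ran over 17170 genes, and a gene is called at an adjusted p under 0.05. Log2 levels for ratios, scores and correlations used a prior count of 2. A fold change against a group at 0 was computed against 3 counts in the shallowest library of that group. Scripts were tested on simulated data. Per-length levels used RefSeq transcript lengths.

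The alternatives were DESeq2 1.42.0 (the submitters' processing notes name DESeq2 1.22.2), RLE size factors, no filter on low counts, fits of 1 day or 1 genotype alone, the replicate number as a block, the stage score as a covariate and leaving out each library. A fit of *Hist1h1a* to *Hist1h1e* without WT_d20_2 was added after seeing the data. The members, lists and tests were chosen with earlier results of these data known. All 7 members are named, with the 3 genes most correlated with each and up to 4 genes of each pathway list with the lowest adjusted p over the mean of the days. Markers of spermatogonia, early meiosis, Leydig cells and blood were also scored. Of these, 1 of 6 Leydig markers was called higher in KO at day 22 and over the mean of the days, 1 of 6 early meiosis markers over the mean, 0 of 6 spermatogonial markers at any day or over the mean, and 1 of 5 blood markers passed the filter.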

Additional observations from a re-analysis of the deposited data

How the results depend on the processing

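DESeq2, RLE size factors and no filter on low counts kept the direction and side of the threshold of 49, 52 and 50 of 54 results each. DESeq2 called 2 members in KO against WT at day 20, 2 in WT from day 20 to day 22, 1 in WT from day 22 to day 24 and 1 in the joint test of days. Without the filter, 1 member was called over the mean of the 4 days and *Hist1h1t* at day 22 was 0.0166. The difference of *H1fx* from day 20 to day 26 in WT turned to 0.0221 with RLE size factors, 0.0118 without the filter and 0.0233 in DESeq2. RLE size factors moved the median of all genes by at most 0.0873. The day 22 libraries alone gave 0 calls in KO against WT and the day 26 libraries alone 1. WT libraries alone gave 2 calls from day 20 to day 22 and 1 from day 24 to day 26, and KO libraries alone 0 from day 20 to day 22. Shares of all genes called were not counted in these fits, and the cause of these moves was not tested.

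With the stage score as a covariate 0 members were called in KO against WT at day 22 and over the mean of the days, and 0 in WT from day 20 to 22, 22 to 24 and 20 to 26 and in KO from day 20 to 22. In that setting the KO difference of *Hils1* turned to -1.05 at day 20, -0.38 at day 22 and -0.0381 over the mean, and its age differences in WT to -0.47 (day 20 to 22), -0.34 (day 22 to 24) and -0.33 (day 20 to 26). *Hist1h1t* turned to 0.13 at day 20, 0.22 at day 22, 0.32 in WT and 0.25 in KO from day 20 to 26, and *Hist1h2ba* at day 20 to 0.26.

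Replicate numbers were not taken to pair the libraries, since not every pair passed a correlation of 0.1: same-numbered WT and KO libraries had correlations of deviations from 0.0705 to 0.41 at day 20 and from -0.459 to -0.0254 at day 22, with 0.39 and 0.416 at days 24 and 26. Own numbers correlated best in 3 of 4 pairs at day 20, 0 of 4 at day 22 and all pairs at days 24 and 26, a hint from the data and not the design. With the replicate block within each day 1 member, *Hils1* (3.30), was called at day 20, *Hist1h2ba* turned to 0.12 at day 20 and -0.0507 at day 22, and *H1fnt* at day 22 (3.22) and both spermatid genes over the mean (2.86 and 1.34) were called. With the replicate block over all days 1 member was called in WT from day 22 to 24 and 5 from day 20 to 26, where *H1fx* turned to 0.12.

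Leaving out each library gave 0 to 2 calls at day 20, 0 to 1 at day 22 and 0 to 2 over the mean in KO against WT, 1 to 2 (day 20 to 22), 1 to 2 (day 22 to 24) and 2 to 5 (day 20 to 26) in WT, and 0 to 2 (day 20 to 22) and 0 to 1 (day 22 to 24) in KO. Sign changes between the 24 fits were seen at day 20 for *Hist1h1t* (-0.62 to 0.37), *H1f0* (-0.12 to 0.0524), *H1fx* (-0.19 to 0.0576), *Hist1h2ba* (-0.33 to 0.55) and *Hist1h2aa* (-0.78 to 0.23), and at day 22 for *Hist1h1t* (-0.25 to 0.19), *H1fx* (-0.0594 to 0.32) and *Hist1h2ba* (-0.14 to 0.26). At day 24 they were seen for *Hist1h2ba* (-0.19 to 0.19) and *Hist1h2aa* (-0.29 to 0.29), at day 26 for *H1fnt* (-0.0168 to 0.33), *H1f0* (-0.30 to 0.14) and *Hist1h2aa* (-0.10 to 0.48), over the mean for *Hist1h1t* (-0.0049 to 0.25) and *Hist1h2aa* (-0.23 to 0.0275), and from day 20 to 26 in WT for *H1fx* (-0.16 to 0.0739). The *Hist1h2aa* to *Hist1h2ba* ratio ran from -0.227 to -0.151, and the *Hist1h1t* to *Hist1h2ba* ratio, which was not called, from -0.0126 to 0.0505. Days 24 and 26 have 2 libraries per genotype, which leaves intervals of several-fold for the spermatid genes, and at day 20 the WT levels of *H1fnt* and *Hils1* rest on 0 to 16 counts per library.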
